A study of Mus musculus with 54 samples.

Results

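The response of 1 mouse embryonic stem cell line to all-trans retinoic acid (ATRA), given for a short differentiation, was measured by RNA sequencing. The line, called WT here, is an Ezh2 fl/Δ heterozygote, in which 1 of the 2 Ezh2 alleles is deleted, and to which wild-type EZH2 was added. EZH2 is the enzyme of Polycomb repressive complex 2 (PRC2), which methylates lysine 27 of histone H3. The comparison sets 3 WT libraries after ATRA against 3 WT libraries of undifferentiated cells (mESC). They were chosen by their sample labels, and are 6 of the 54 samples of the series and 6 of the 48 libraries analysed. The treated cells differ from the untreated in 2 ways, since 2i and LIF, which hold stem cells undifferentiated, were removed when ATRA was added, so the withdrawal and the retinoic acid cannot be told apart. The heterozygous deletion and the added EZH2 are shared by both groups. The dose and duration of ATRA, what drives the added EZH2 and whether the line is a single clone are not stated in the labels. The parental line, whose columns are headed flfl, and its heterozygous derivative without added EZH2 (het), each with 3 mESC and 3 ATRA libraries, were used for comparison.

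Retinoic acid is a form of vitamin A that enters the nucleus and binds heterodimers of the RAR and RXR receptors, which sit on direct repeats of a short DNA motif and switch from repressing to activating nearby genes. It is broken down by the CYP26 enzymes, whose own genes it switches on, and in the embryo it sets the anterior limits of Hox expression. Naive stem cells kept in 2i and LIF are held there by LIF acting through STAT3, by inhibition of ERK signalling and by stabilised beta-catenin. Cells that leave this state pass through a formative stage before they take up a lineage.

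The 6 libraries held 17880461 to 24677036 counts. Levels are counts per 1e+06 library counts after TMM scaling (CPM), and a gene was called at an adjusted p under 0.05 in edgeR's quasi-likelihood test, with Benjamini-Hochberg adjustment over all genes tested. More genes had at least 1 count after ATRA (24054 to 25094 per library) than before (21942 to 22591). The share of counts from mitochondrial genes was 1.48% to 1.81% in mESC and 1.49% to 1.96% in ATRA. The stem cell label was checked with Pou5f1 (933, 901 and 971 CPM in mESC), Sox2 (337, 305 and 319 CPM) and Nanog (891, 844 and 820.5 CPM), all abundant in every mESC library. Nothing in the labels says that replicates came from separate cultures, so p-values measure the spread between libraries of the same group, which may be technical. That spread was estimated over all 48 libraries analysed, of 8 lines. In bulk RNA, fewer cells of a kind and less RNA per cell cannot be told apart.

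After ATRA, most of the known retinoic acid targets and Hox genes tested rose, many of them from near silence, and most naive pluripotency genes fell. Of 17683 genes tested, 10435 were called (59.0%), 5271 higher (29.8%) and 5164 lower (29.2%). A change of at least 2-fold was called for 2864 genes upward (16.2%) and 1500 downward (8.48%), and one of at least 4-fold for 1503 (8.50%) and 568 (3.21%). Large changes were thus more often upward, while the median over all genes was a log2 change of 0.02. The libraries of the 2 groups did not overlap for 64.9% of genes. With so large a share called, the counts in the gene lists below are read against these percentages. The lists overlap, and genes that are silent in mESC entered the test through ATRA libraries, so such genes had to be higher.

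**Figure D1:**
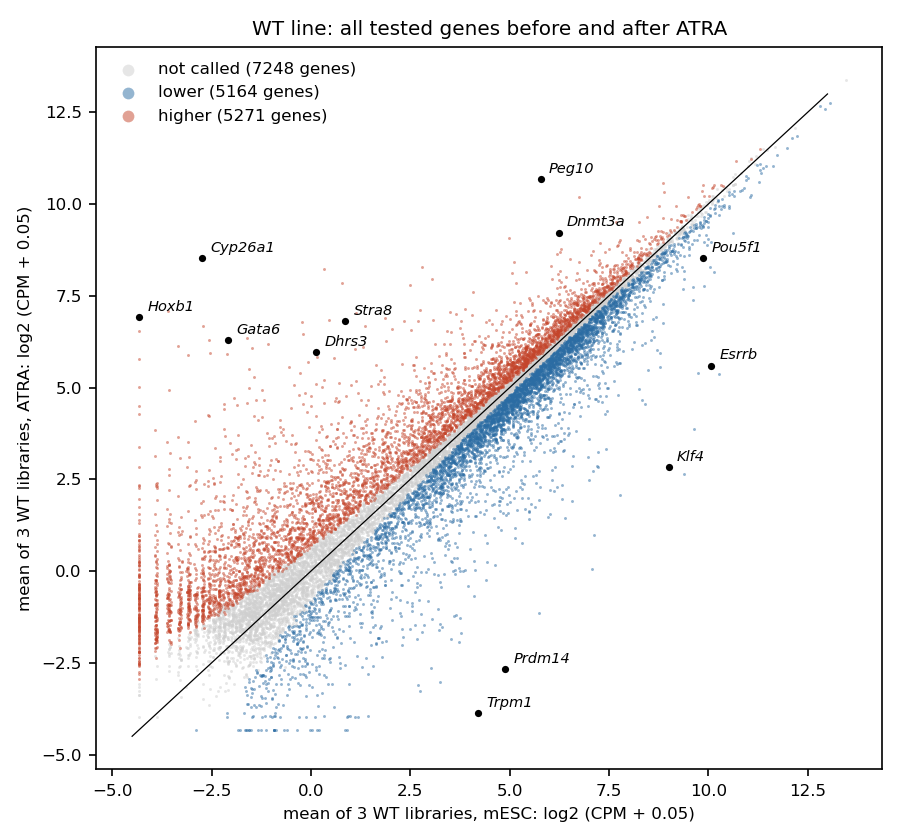
Mean level of each of the 17683 tested genes in 3 WT libraries before (horizontal axis) and after ATRA (vertical axis), as log2 of CPM plus 0.05, coloured by the edgeR call at an adjusted p under 0.05. The 5271 genes called higher reach far above the diagonal at the left, where Cyp26a1 and Hoxb1 lie, and the 5164 called lower include Klf4, Esrrb and Prdm14 far below it.

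Most genes of retinoic acid metabolism rose. Cyp26a1 (chr19:37697798-37701536, GRCm38), the main enzyme that clears retinoic acid, was read at 0.0506, 0.191 and 0.0553 CPM in the mESC libraries and at 376, 403 and 329 CPM after ATRA, a log2 fold change of 11.74 (SE 0.199, adjusted p = 4.15e-40). Cyp26b1, another clearing enzyme, went from 0.0506, 0.143 and 0.166 CPM to 91.9, 76.1 and 65.5 CPM, and Cyp26c1, the third, from 0, 0 and 0.0553 CPM to 4.91, 5.22 and 4.12 CPM. The treated and untreated libraries are far apart for all 3 enzymes. Stra6, the cell surface receptor that takes up retinol, rose by 8.20 (SE 0.236, adjusted p = 3.89e-30) on the log2 scale, and Dhrs3, which turns retinal back into retinol, by 5.91 (SE 0.157, adjusted p = 9.08e-33). Of the carriers of retinoic acid, Crabp2 rose by 3.07 and Crabp1 fell by 0.70. Enzymes that make retinoic acid moved unevenly, and Aldh1a3 was among the genes called higher. Aldh1a2 was read at 3.59, 3.81 and 2.21 CPM in mESC and 3.11, 2.89 and 2.69 CPM in ATRA, which overlap, and Rdh10 rose by 0.54. In all, 12 of the 15 tested genes of this list were higher (29.8% of all genes were) and 1 was lower (29.2% of all genes), with a median of 2.76.

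Sequences upstream of these genes were searched for the element through which RAR acts. The direct repeat with a spacer of 5 was taken as 2 hexamers in the same orientation, 5 bases apart, on either strand, in the 250 bases before each RefSeq start on GRCm38.p6. The consensus hexamer AGGTCA was allowed, and beside it the related forms written AGTTCA, then those written GGGTCA, and lastly those written GGTTCA. Of 12 known retinoic acid targets with a promoter in that table, 2 hold it, Cyp26a1 and Rarb, a retinoic acid receptor gene that retinoic acid is known to switch on. Both windows are shown because they hold the element beside genes that rose. The Cyp26a1 window is chr19:37697558-37697807 on the plus strand, and the Rarb window chr14:16575477-16575726 on the minus strand. Each is printed in the direction of the gene, with the repeat in capitals.
Cyp26a1: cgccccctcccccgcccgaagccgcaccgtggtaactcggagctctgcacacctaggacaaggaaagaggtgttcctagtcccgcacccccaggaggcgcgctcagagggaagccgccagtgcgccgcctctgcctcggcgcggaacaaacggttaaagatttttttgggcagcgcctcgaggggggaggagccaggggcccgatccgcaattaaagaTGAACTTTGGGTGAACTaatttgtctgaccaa
Rarb: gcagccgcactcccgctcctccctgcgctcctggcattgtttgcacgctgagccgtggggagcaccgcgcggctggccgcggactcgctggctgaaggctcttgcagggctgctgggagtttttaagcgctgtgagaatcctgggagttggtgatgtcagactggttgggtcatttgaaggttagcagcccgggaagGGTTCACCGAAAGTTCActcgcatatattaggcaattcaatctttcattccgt
In Cyp26a1 the repeat reads on the strand opposite to the gene and lies 32 to 16 bases before the start, and in Rarb it reads on the gene's own strand, 53 to 37 bases before it. Such a repeat is rare, found for 28 of 27025 gene symbols (0.104%). Among tested genes with a promoter it was found for 8 of 3769 higher genes (0.212%), 2 of 3939 lower genes (0.051%) and 1 of 4237 genes not called (0.024%). All 8 of the higher genes rose at least 2-fold, and beside Cyp26a1 and Rarb they are Gm14133, Hbb-y, Ppbp, Prokr2, Syndig1 and Tnfsf13b. The same hexamers 2 bases apart, another spacing that RAR can bind, were found for 0.159% of higher, 0.051% of lower and 0.094% of uncalled genes, and 1 base apart for 0.133%, 0.102% and 0.354%. All of these shares rest on at most 15 genes each. A match describes these letters only, and binding was not measured.

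Among the receptors, Rarb was read at 0.152, 0.334 and 0.332 CPM in mESC and 5.08, 4.43 and 3.98 CPM in ATRA, a log2 change of 4.01 (SE 0.297, adjusted p = 4.39e-16). Rarg and Rara, the other RAR genes, were already present and rose less, by 0.77 and 0.54, so that Rarg stood at 48.1 CPM per kb of transcript after ATRA and Rarb at 0.854. Of the RXR partners, Rxra rose by 0.82 and Rxrg by 4.53 from 0.203, 0.143 and 0 CPM, and Rxrb overlapped between groups. Nrip1, a corepressor that binds liganded receptors, rose from 17.1, 17.4 and 15.7 CPM to 207, 190.1 and 192 CPM, and Ncor1, the corepressor of unliganded receptors, fell by 0.22, a call that was lost when libraries were scaled by total count. The list of receptors and coregulators had 10 of 17 genes higher and 1 lower.

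Known direct or early targets were 19 of 21 higher and 2 lower, with a median log2 change of 4.77. The transcription factor gene Zfp703 was read at 1.42, 0.906 and 1.27 CPM before and 307, 311 and 284 CPM after ATRA, and Stra8, which starts meiosis in germ cells, at 1.82, 2.0 and 1.49 CPM and 113, 119 and 103 CPM. The 2 genes that fell were Cdx1, at 121, 117 and 125 CPM in mESC and 56.3, 62 and 50.6 CPM in ATRA, and Ripply3, which fell by 0.74. Cdx1 is known both as a retinoic acid target and as a WNT target.

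Hox genes, which give cells their position along the body axis, were close to absent in mESC and together took 973 to 995 CPM after ATRA, against 10.9 to 12.9 CPM before. Of 33 tested, 27 were higher and 3 lower. The largest gains were in the A and B clusters. Hoxb1 had no count in any mESC library and was read at 118, 123 and 122 CPM after ATRA, at least 2383-fold higher over a floor of 3 counts in the group. Hoxa5 went from 0.0506, 0.0477 and 0 CPM to 130.2, 134 and 142 CPM, a ratio of 3983-fold (95% counting interval 1102 to 32892).

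Levels did not fall off evenly along the clusters. Per kb of transcript after ATRA, Hoxa2 stood at 6.4 CPM, Hoxa3 at 11.6, Hoxa4 at 36.9, Hoxa5 at 72, Hoxa6 at 1.78, Hoxa7 at 5.22, Hoxa9 at 5.47 and Hoxa10 at 18.8. In the B cluster Hoxb1 stood at 52.2 CPM per kb, Hoxb3 low at 4.57, Hoxb4 at 23.3, and Hoxb8 again high at 38.7, with Hoxb9 at 14.2. In the C and D clusters no gene stood above Hoxc4 at 5.69 CPM per kb, with Hoxc5 at 1.69, Hoxd1 at 1.53 and Hoxd13 at 1.01, and the others tested at or below 0.187. The genes that fell all lie in the 5′ part of the C cluster. Hoxc12 was read at 1.87, 1.33 and 2.38 CPM in mESC and 0, 0 and 0.0448 CPM in ATRA, Hoxc13 fell by 3.54 and Hoxc10 by 2.00, the latter not called without mESC replicate 1 (-1.46, adjusted p = 0.107). Neighbouring Hox genes share transcripts that overlap, and whether the counting used strand is not stated in the labels, so reads of antisense neighbours may be mixed.

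**Figure D2:**
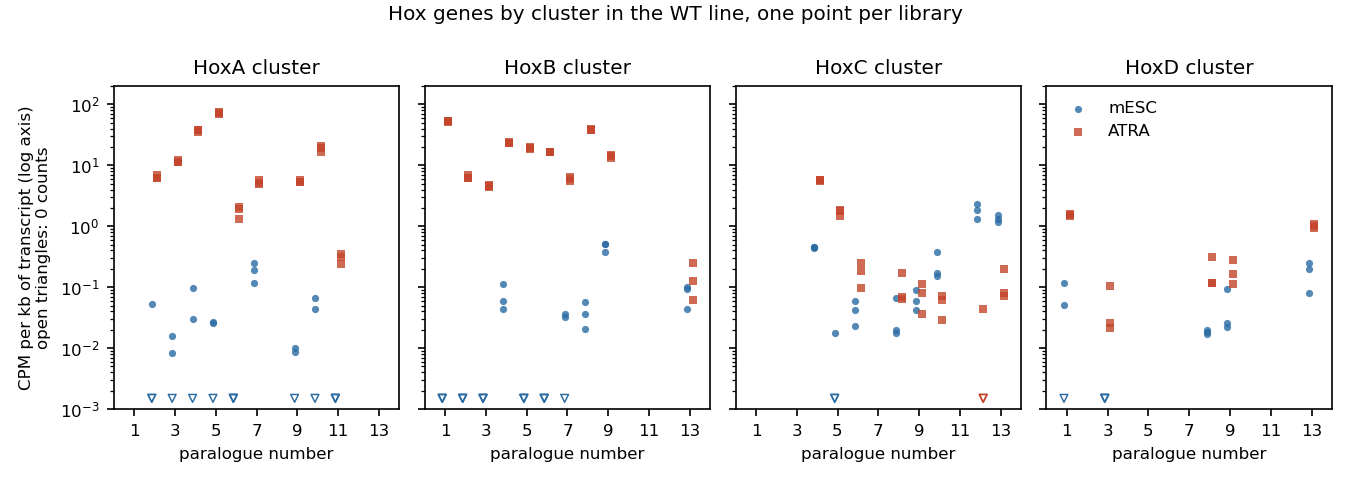
Level of the Hox genes reported here in CPM per kb of transcript (log axis) against its paralogue number, by cluster, with 1 point per WT library, circles for mESC and squares for ATRA, and open triangles where a library had 0 counts. Of the genes shown, the highest after ATRA are in HoxA and HoxB, led by Hoxa5 at 72 and Hoxb1 at 52.2. HoxC and HoxD genes reach at most 5.69 (Hoxc4), which lies above Hoxa6, Hoxa7, Hoxa9 and Hoxb3.

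Most of the cofactors with which Hox proteins bind DNA rose. Meis2 was read at 0.861, 0.81 and 0.775 CPM in mESC and 84.8, 91.7 and 89.8 CPM in ATRA and Meis1 rose by 5.98 (SE 0.225, adjusted p = 6.77e-27) on the log2 scale. Pbx2 and Pbx3 rose by 1.33 and 1.72, Pbx4 fell by 0.68, and 6 of 9 cofactors were higher. The genes of the posterior growth zone split. Cdx4, Cdx2, Wnt8a and Gdf11 rose, with Cdx2 at 1.01, 1.14 and 0.83 CPM before and 4.37, 4.59 and 3.8 CPM after, while T (brachyury), which marks the primitive streak, fell by 1.41, Nkx1-2 by 1.81 and Evx1 by 2.04.

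Naive pluripotency genes fell in nearly all cases, with 20 of 23 lower, 1 higher and a median log2 change of -3.12. Klf4 (chr4:55527143-55532466), a factor of the naive network that LIF maintains, was read at 513, 501 and 526 CPM in mESC and 6.93, 7.52 and 6.71 CPM in ATRA. Tfcp2l1, a partner of the same network, went from 1211, 1273 and 1223 CPM to 42, 42.5 and 39.3 CPM and Esrrb, a nuclear receptor, from 1069, 1041 and 1135 CPM to 47.9, 49.9 and 47.8 CPM. Prdm14, a repressor of FGF signalling and of DNA methylation in naive cells, fell by 8.04 to 0.164, 0.158 and 0 CPM. The falls were uneven. Zfp42 kept 67, 67.8 and 67.7 of 172, 155 and 163 CPM, Tbx3 fell by 1.34, and Dppa5a was read at 1359.6, 1352 and 1339.7 CPM before and 1094, 1274 and 1208 CPM after, a change of -0.18 (SE 0.0816, adjusted p = 0.055). Gbx2, which is induced by LIF, by WNT and by other signals, rose from 14.3, 13.7 and 15.3 CPM to 56.5, 54.3 and 61.5 CPM. The summed level of the list was 8428 to 8504 CPM in mESC and 2049 to 2220.3 CPM in ATRA.

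The core genes of pluripotency moved both ways, with a median of 0.16 over 14 genes. Of these, 7 were higher (50.0%, against 29.8% of all genes) and 5 lower (35.7%, against 29.2%). Pou5f1 (Oct4) was read at 358, 374 and 368 CPM after ATRA, a change of -1.35 (SE 0.0987, adjusted p = 7.59e-16), and Sox2 at 115, 108 and 118 CPM, a change of -1.50 (SE 0.0821, adjusted p = 1.05e-20). Nanog fell to 42, 40.8 and 44.7 CPM, a change of -4.33 (SE 0.0761, adjusted p = 8.79e-40). Lin28a and Lin28b, RNA-binding proteins that block let-7, rose by 0.55 and 1.17. Tdgf1 (Cripto), the coreceptor of Nodal, fell by 2.00.

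Genes of the formative and primed epiblast rose in 13 of 18 cases and fell in 3. The de novo DNA methyltransferase Dnmt3a went from 76.9, 70.2 and 78.6 CPM to 633, 558 and 601 CPM and Dnmt3b from 105, 92.4 and 100.4 CPM to 185, 184 and 185 CPM. Pou3f1 (Oct6), which marks formative cells, rose by 2.15 (SE 0.142, adjusted p = 8.09e-18) on the log2 scale. Fgf5, the standard epiblast marker, rose only to 2.67, 2.1 and 3.0 CPM. Otx2, which is known to drive the exit towards anterior epiblast, was low throughout, at 0.658, 0.715 and 0.553 CPM in mESC and 0.164, 0.158 and 0.0895 CPM in ATRA, and Foxd3 fell by 3.14.

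**Figure D3:**
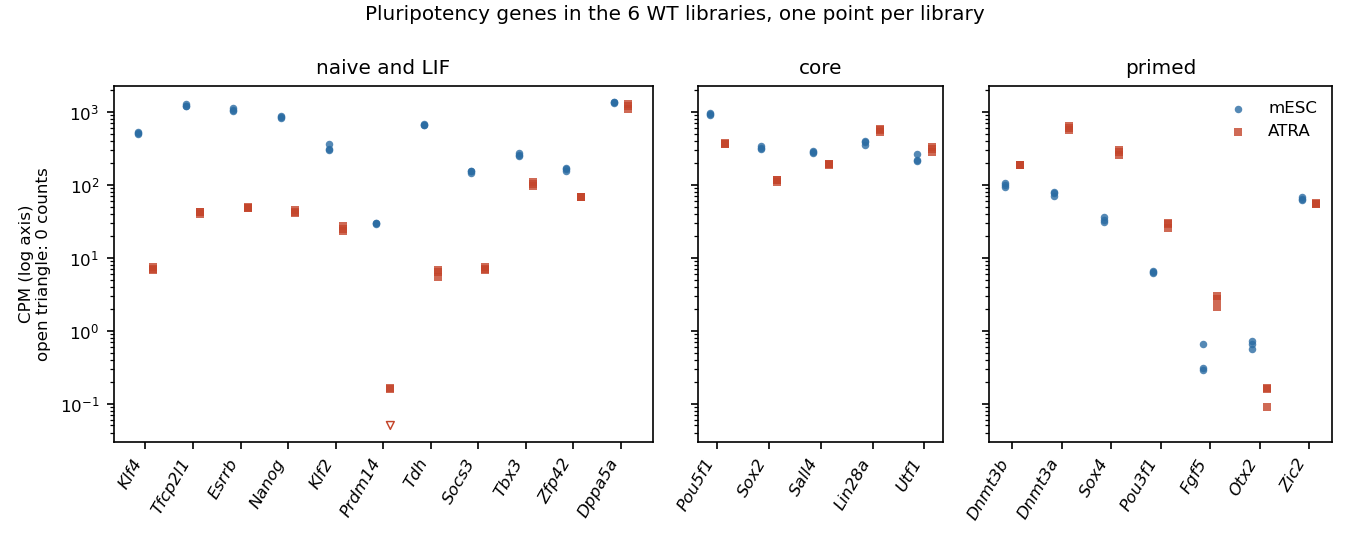
Levels in CPM (log axis) of naive and LIF-dependent genes, core factors and primed genes in the 6 WT libraries, 1 point per library, circles for mESC and squares for ATRA, with an open triangle for 0 counts. The groups are separate for Klf4, Tfcp2l1 and Nanog, which fell, and for Dnmt3a and Sox4, which rose by 2.99 and 3.08 on the log2 scale.

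Most genes of the LIF pathway fell. Socs3, the feedback inhibitor of STAT3, was read at 153, 143 and 156 CPM in mESC and 7.42, 6.81 and 6.98 CPM in ATRA. Stat3 itself fell by 2.67 (SE 0.0643, adjusted p = 1.99e-34) on the log2 scale, the receptor gene Lifr by 1.81 and Il6st, its partner, by 0.81. Bcl3 fell by 3.93, and Pim1, a STAT3 target kinase that other signals also induce, rose by 2.48. In all, 12 of 17 genes of the pathway were lower and 3 higher.

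Genes that respond to ERK, which 2i holds down, moved both ways, 11 of 19 higher and 7 lower. Dusp6, a phosphatase that ERK induces, was read at 30.5, 33.4 and 30.4 CPM in mESC and 531, 535 and 564 CPM in ATRA, and Dusp4 rose by 3.74 (SE 0.133, adjusted p = 7.76e-28) on the log2 scale. Spred1, a feedback inhibitor, rose by 1.39. Etv5 and Spry2, which ERK also induces, fell by 0.94 and 0.84. Of the FGF ligands, Fgf4, the main ligand of stem cells, fell by 2.03 to 63.5, 64.5 and 71.5 CPM, while the receptors Fgfr1 and Fgfr2 rose, Fgfr2 from 0.456, 0.334 and 0.332 CPM to 32, 30.4 and 29.3 CPM.

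WNT feedback genes split as well, with 7 of 17 higher (41.2%, against 29.8% of all genes) and 8 lower (47.1%, against 29.2%). Axin2, a general readout of beta-catenin, fell by 0.63 (SE 0.107, adjusted p = 2.22e-06) on the log2 scale, Notum by 3.54 and Sp5 by 5.02, from 13.3, 10.8 and 12.2 CPM. Sp8 rose from 0.911, 1.19 and 1.05 CPM to 31.6, 36.4 and 34.8 CPM and the secreted inhibitor Dkk1 from 0.152, 0.334 and 0.277 CPM to 5.95, 5.46 and 5.55 CPM. Lef1, which carries beta-catenin to DNA and also marks the epiblast, rose by 1.94.

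In the Nodal pathway the 2 Lefty genes, feedback inhibitors of Nodal, went opposite ways. Lefty1 was read at 107, 102 and 115 CPM in mESC and 1198, 1252 and 1063 CPM in ATRA, and Lefty2 at 635, 644 and 658 CPM and 322, 314 and 306 CPM. The groups do not overlap for either gene. Nodal rose by 0.31 (SE 0.112, adjusted p = 0.015), but was not called without mESC replicate 2 or ATRA replicate 2 (adjusted p = 0.0651 and 0.0775). Skil, a repressor of SMAD signalling, rose by 2.45. In the BMP pathway 16 of 24 genes were higher and 6 lower. The targets Id1, Id2 and Id3 rose by 0.73, 3.47 and 1.08 and Msx1 by 6.74 to 30.6, 31.4 and 32.5 CPM, while the ligand Bmp4 fell from 25.8, 24.4 and 28.8 CPM to 4.97, 4.35 and 4.7 CPM and Id4 by 1.92. Of the Hedgehog genes, Hhip, a target and ligand trap, rose from 0.608, 0.667 and 0.609 CPM to 48, 50.5 and 43.9 CPM, Smo and Ptch1 rose by 1.56 and 0.70, and the mediators Gli1 and Gli2 fell by 1.71 and 2.27. The Notch ligand Dll1 rose by 4.53 and Notch3 by 1.92, while Hes1, a Notch target, fell by 1.39.

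Most endoderm regulators rose, with 9 of 12 higher and 3 lower, and a summed level of 32.5 to 37.5 CPM in mESC and 187 to 191 CPM in ATRA. Gata6, which specifies primitive endoderm, was read at 0.152, 0.238 and 0.166 CPM in mESC and 77.2, 77.3 and 81.5 CPM in ATRA. Sox17 rose by 6.66 (SE 0.25, adjusted p = 5.63e-27) on the log2 scale and Gata4 by 3.99 (SE 0.153, adjusted p = 1.29e-26). The surface receptors Lrp2 and Cubn, which visceral endoderm uses to take up nutrients, rose by 4.91 and 6.38, and Dab2, their adaptor, by 4.15. The list of secreted and surface products was 8 higher and 1 lower of 10 tested, and its other 6 genes, which include Afp, Ttr and Apoa1, the serum proteins of mature visceral endoderm, did not pass the filter on low counts. Matrix genes of parietal endoderm split into 9 higher and 9 lower. Col4a1 and Col4a2, chains of type IV collagen, rose by 1.83 and 2.26, and Sparc and Nid1 fell by 1.49 and 1.66.

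Blood and endothelium markers were higher for 11 of 13 and lower for 1, with a summed level of 18.9 to 19.9 CPM in mESC and 139 to 161 CPM in ATRA. Tal1, which specifies blood, was read at 1.16, 0.429 and 0.885 CPM in mESC and 24.3, 22 and 23.4 CPM in ATRA, Etv2, which specifies the common precursor of blood and vessels, at 1.01, 0.906 and 1.72 CPM and 24.3, 22.6 and 24.8 CPM, and Kdr, the receptor of VEGF, at 0.456, 0.238 and 0.277 CPM and 20.9, 15.6 and 19.5 CPM. The groups are separate for all 3 genes. Fli1 had no count in mESC and was at least 92.5-fold higher, and Gata1, which marks red cell precursors, fell to 0.109, 0.119 and 0.0448 CPM, a call that was lost without mESC replicate 1 or ATRA replicate 3 (adjusted p = 0.0707 and 0.078). Pdgfra, which marks mesoderm and primitive endoderm, rose by 6.19 (SE 0.23, adjusted p = 3.99e-27), whereas the streak gene Eomes fell by 1.77.

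Neural markers were 12 higher and 4 lower of 19. Sox1, the earliest neural marker, was read at 5.97, 5.48 and 5.59 CPM in mESC and 100.3, 86.2 and 97.3 CPM in ATRA, and Pax6 at 0.304, 0.429 and 0.387 CPM and 18.9, 18.6 and 17.6 CPM. Genes of neurons moved both ways. Tubb3 fell from 178, 167 and 180.5 CPM to 48.2, 50.1 and 43.7 CPM, Map2 by 0.74 and Ncam1 by 2.49, while Dcx, with no count in mESC, was read at 0.819, 1.39 and 0.985 CPM after ATRA, at least 21.4-fold higher. Of trophoblast and epithelial markers 7 of 14 were higher and 4 lower, with Krt8 and Krt18 up by 0.64 and 1.46 and Tead4 and Tfap2c down by 3.92 and 1.90. E-cadherin (Cdh1) fell by 0.67 (SE 0.071, adjusted p = 3.58e-11) and N-cadherin (Cdh2) rose by 1.68 (SE 0.121, adjusted p = 1.81e-16). Of 17 fibroblast markers, 9 were tested and 6 were higher, with a summed level of 59.3 to 64.3 CPM before and 104 to 127 CPM after, most of it Fbln1. Col1a1 was read at 1.91, 2.49 and 2.42 CPM after ATRA and Col3a1, Lum and Postn did not pass the filter, and the part of other cells in any result was not tested.

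Germline genes rose in 21 of 26 cases and fell in 5. Besides Stra8, the meiotic genes Sycp1 and Sycp2 rose by 2.24 and 3.92, Tdrd1, of the piRNA pathway, from 0.911, 0.667 and 0.553 CPM to 11, 11.6 and 10.3 CPM, and Ddx4 (Vasa) by 1.10, while Dppa3, Nanos3 and Prdm1, which mark primordial germ cells, fell by 3.58, 1.07 and 1.19. Genes of the 2-cell-like state, a rare state of stem cell cultures, were all 15 higher of 15 tested, 5 others not passing the filter. The whole list summed to 0.15, 0.24 and 0.33 CPM in the mESC libraries, and 8 of the 15 had no count in mESC. Genes so low in mESC entered the test through ATRA libraries, so this count was largely set by the filter. Their levels were low, with Zscan4d, the highest, at 0, 0 and 0 CPM in mESC and 1.69, 1.94 and 1.52 CPM in ATRA. The Zscan4 and Usp17l genes are near-identical copies that share reads. With the WT libraries fitted alone 8 of the list passed the filter, all higher, and the same limit holds there.

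Imprinted genes, which are expressed from 1 parental allele, were 25 higher and 4 lower of 41. Peg10, a placental gene derived from a retrotransposon, gained the most CPM of all genes named by the rule, from 56.5, 56.4 and 52 CPM to 1697, 1670.0 and 1586 CPM, a log2 change of 4.91 (SE 0.0771, adjusted p = 1.48e-41). Cdkn1c (p57), an inhibitor of cell division, was read at 1.82, 2.43 and 2.99 CPM in mESC and 69.5, 63.1 and 72.6 CPM in ATRA, H19 rose by 3.43 and Dlk1 by 4.84. Plagl1, which regulates other imprinted genes, fell by 2.72 (SE 0.0975, adjusted p = 9.98e-28). Rian, expressed from the maternal copy of the Dlk1 region, was read at 0.164, 0.119 and 0.179 CPM after ATRA and was not called.

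Of the PRC2 genes, 2 of 12 were higher and 6 lower, 0 of them by 2-fold or more. Ezh2 (chr6:47530139-47595341), which is read here from the remaining allele and, if it matches the mouse gene, from the added copy together, was at 462, 439 and 417 CPM in mESC and 358, 360.5 and 368 CPM in ATRA, a change of -0.28 (SE 0.0595, adjusted p = 8.21e-05). Eed, the subunit that binds the methylated histone, fell from 257, 255 and 246 CPM to 127, 129 and 132 CPM, Ezh1, the second methyltransferase, fell by 0.47, and Suz12, the scaffold, was at 327, 307 and 294 CPM and 311, 271 and 338 CPM, which overlap. Among accessory subunits Jarid2 rose by 0.77 (SE 0.0475, adjusted p = 9.3e-19), and Epop and Mtf2 fell by 0.95 and 0.44. Of PRC1 genes 13 of 26 were higher (50.0%, against 29.8% of all genes) and 9 lower (34.6%, against 29.2%). Of these, 4 were at least 2-fold higher and 1 at least 2-fold lower. The largest change was that of Yaf2, a partner of RING1 proteins, which rose by 2.42 (SE 0.109, adjusted p = 6.06e-24). The CBX readers moved in opposite directions, with Cbx7, the main one of stem cells, down from 199, 201 and 225 CPM to 123, 128 and 113 CPM and Cbx2 up from 39.6, 34.6 and 37.3 CPM to 55, 56.8 and 54.2 CPM, and Bmi1 (Pcgf4) rose by 1.56 as Pcgf2 fell by 0.82. Developmental regulators that Polycomb is known to bind in stem cells were 35 higher and 11 lower of 53. Foxd1 (chr13:98354242-98359305), a kidney and forebrain factor, fell from 13.6, 10.9 and 13.2 CPM to 0.218, 0.673 and 0.269 CPM.

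Genes of DNA methylation moved both ways. Against the rise of Dnmt3a and Dnmt3b, their cofactor Dnmt3l fell by 0.68 (SE 0.0738, adjusted p = 5.17e-11) on the log2 scale, and Uhrf1 and Dnmt1, which copy methylation after replication, fell by 0.69 and 0.35. Tet1, which oxidises methylcytosine in stem cells, was read at 579, 625 and 578 CPM in mESC and 293, 262 and 319.6 CPM in ATRA, and Tet3 at 12.2, 10.9 and 9.85 CPM and 48.8, 46.1 and 41.7 CPM. Zfp57, which protects imprints, fell by 1.68.

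Of the cell cycle genes, 5 of 21 for replication and mitosis were higher (23.8%, against 29.8% of all genes) and 7 lower (33.3%, against 29.2%). That split turned to 8 higher and 2 lower when libraries were scaled by total count, so no direction is given for it. Cyclin D genes moved in opposite directions, Ccnd2 rising from 9.01, 8.34 and 7.8 CPM to 123, 105 and 118 CPM while Ccnd1 and Ccnd3 fell by 1.06 and 0.63. Oxidative phosphorylation genes encoded in the nucleus were lower for 29 of 34 and higher for 0, with a median of -0.46. Glycolysis genes were lower for 16 of 21, led by Pfkp, which fell by 1.89 (SE 0.0995, adjusted p = 1.08e-20), and higher for 2, Eno3 and Slc2a1 (GLUT1), the latter from 486, 466 and 453 CPM to 1632, 1565 and 1349 CPM. Slc2a3 (GLUT3) fell from 2911, 2840.4 and 2618 CPM to 2252, 2139.6 and 1896 CPM. Threonine dehydrogenase (Tdh), on which naive mouse cells rely, fell from 656, 668 and 690.3 CPM to 5.51, 6.73 and 6.27 CPM, and Gcat, the next enzyme, by 1.62. Cholesterol synthesis genes rose in 15 of 20 cases by small amounts (median 0.35).

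Interferon and antigen presentation genes were lower for 8 of 13 and higher for 4. Xaf1 was read at 6.13, 7.34 and 6.64 CPM in mESC and 0, 0.119 and 0.0448 CPM in ATRA, and Ifitm3 at 109.9, 104 and 113 CPM and 18.7, 18.6 and 18.4 CPM, while the MHC gene H2-K1 rose by 1.64 (SE 0.119, adjusted p = 4.1e-16) on the log2 scale. Ifitm genes are similar copies that may share reads. Genes named for the largest falls include Trpm1, a cation channel gene read at 15.4, 21.1 and 18.3 CPM in mESC and 0.0546, 0 and 0 CPM in ATRA, Lrrc34, which fell by 7.06, and Ntn1, the secreted guidance factor netrin, which fell by 6.19. Csn3 (kappa-casein), among the genes named for the largest rises, had no count in mESC and was read at 87.2, 95.3 and 96.7 CPM in ATRA, at least 1833-fold higher. Among abundant genes Mdk (midkine), a heparin-binding growth factor that retinoic acid induces in embryonal carcinoma cells, rose from 156, 136 and 155 CPM to 773, 809 and 719 CPM, and Tmsb10 fell by 1.42 and Rps2 by 0.59.

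**Figure D4:**
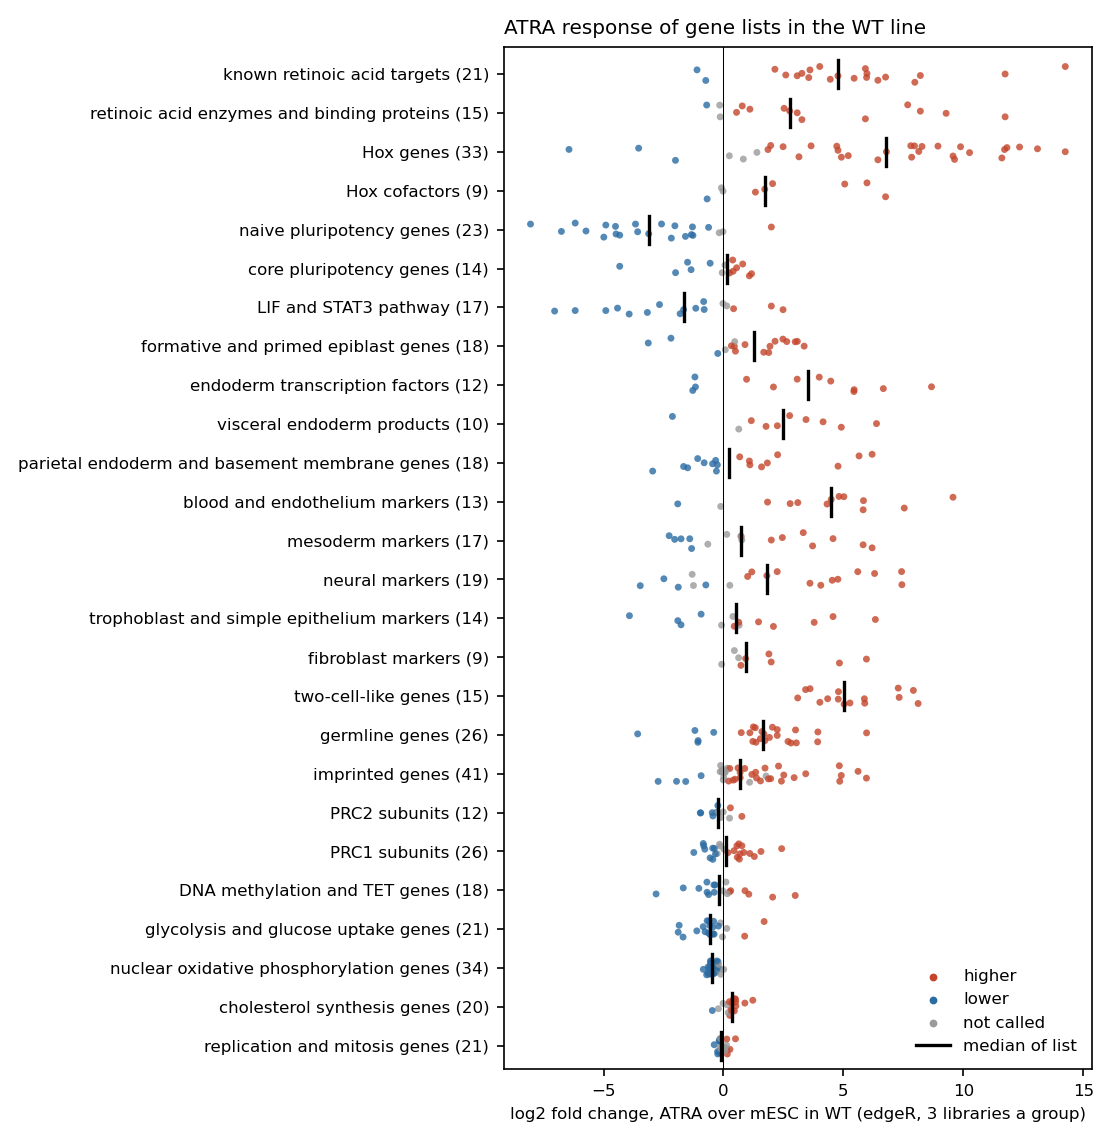
Log2 fold change of ATRA over mESC in WT (edgeR, 3 libraries a group) for the tested members of 26 gene lists, 1 point per gene, coloured by call, with the list median as a bar and the number tested in brackets. Hox genes and retinoic acid targets lie to the right, with medians of 6.79 and 4.77, and naive genes to the left, with a median of -3.12.

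Most of the response was also called in the other lines. Each was tested as its own ATRA against its own mESC libraries, within 1 fit of all 48 libraries that shares the estimate of spread. Of the 5271 genes higher in WT, 79.6% were called higher in the parental line and 82.9% in het, and of the 5164 lower genes 76.3% and 80.4% were called lower there. Cyp26a1 after ATRA stood at 368, 349.9 and 367 CPM in the parental line, 339.7, 334 and 335 CPM in het and 376, 403 and 329 CPM in WT. Differences in response were tested as the WT response minus that of another line. Against the parental line 1023 genes were called (5.79%), 485 with a higher WT response (2.74%) and 538 with a lower one (3.04%). Against het, the line without added EZH2, 398 were called (2.25%), 173 higher (0.978%) and 225 lower (1.27%). Other differences between WT and het, such as clone or handling, cannot be told apart from the added EZH2. The 2 tests share the WT libraries, so their values are given side by side. Libraries differ in how counts depend on the GC content of genes, and the WT response correlated with it at -0.206 across 10832 genes, against -0.105 in the parental line and -0.106 in het. After removal of the GC trend from every library, the counts became 1658 and 758 genes, and with WT and het fitted alone the latter was 755. The count against het fell to 260 without WT mESC replicate 3, 250 without WT ATRA replicate 1, 239 without het mESC replicate 3, 254 without het ATRA replicate 2 and 247 without het ATRA replicate 3.

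Several blood and endothelium markers had a stronger response in WT than in the parental line or het, and in 4 of the 5 lines with EZH2 variants the median response of the list was larger still. Of 13 tested, 7 had a higher response in WT than in the parental line (2.74% of all genes did) and 0 a lower one (3.04%). Against het these were 5 and 0 (0.978% and 1.27% of all genes). The median log2 response of the list was 2.79 in the parental line, 3.55 in het and 4.49 in WT, and 5.65 in A677T, 5.08 in R679C, 5.24 in K634E, 4.85 in K563E and 3.07 in A733T, and WT was not tested against these 5. Gata2 (chr6:88193891-88207032), a regulator of blood stem cells, was read in WT at 5.21, 5.2 and 4.81 CPM in mESC and 20.2, 16.3 and 18.1 CPM in ATRA, in the parental line at 10.5, 9.5 and 9.23 CPM and 7.81, 5.79 and 6.22 CPM, and in het at 7.38, 6.35 and 6.98 CPM and 6.68, 5.65 and 5.18 CPM. Of these 3 lines ATRA libraries stand above mESC in WT alone, and the log2 response differed by 2.38 (SE 0.225, adjusted p = 1.8e-10) from the parental line and by 2.06 (SE 0.228, adjusted p = 5.66e-08) from het. The 5 lines with EZH2 variants had Gata2 responses of 2.12 (A677T), 3.07 (R679C), 2.97 (K634E), 3.24 (K563E) and 0.91 (A733T). Tal1 was higher after ATRA in all 3 lines, at 5.41, 3.27 and 4.05 CPM in the parental line, 5.39, 3.34 and 4.18 CPM in het and 24.3, 22 and 23.4 CPM in WT, a difference in response of 2.72 (SE 0.38, adjusted p = 1.64e-06) from the parental line and 1.61 (SE 0.441, adjusted p = 0.0371) from het. In the variant lines its response was 7.59 (A677T), 6.30 (R679C), 6.96 (K634E), 6.94 (K563E) and 3.07 (A733T), against 4.82 in WT. The Tal1 call against het was lost without any 1 of 8 of the 12 libraries of WT and het. Kdr reached 3.2, 1.96 and 2.86 CPM in the parental line, 4.17, 2.61 and 3.88 CPM in het and 20.9, 15.6 and 19.5 CPM in WT, a difference of 2.65 (SE 0.596, adjusted p = 0.00294) and 1.40 (SE 0.677, adjusted p = 0.395). The Kdr response was 7.27, 6.31, 5.68, 5.93 and 4.43 in the same 5 lines and 5.82 in WT. Without parental mESC replicate 1 the Kdr difference from the parental line was no longer called (adjusted p = 0.179). Gata4 differed by 2.06 (SE 0.214, adjusted p = 1.69e-09) from the parental line, where its mESC level was higher (3.47, 4.09 and 4.5 CPM against 1.52, 1.14 and 1.99 CPM in WT), and by 0.74 (SE 0.237, adjusted p = 0.0975) from het, which was called without het ATRA replicate 1 (adjusted p = 0.0499).

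Most naive genes fell further in WT than in the parental line. Of 23 tested, 16 had a lower response in WT (3.04% of all genes did) and 2 a higher one (2.74%). Against het these were 7 and 1 (1.27% and 0.978% of all genes). The median response of the list was -2.23 in the parental line, -2.39 in het and -3.12 in WT, and from -3.27 (K634E) to -2.83 (A677T) in the variant lines, not tested against WT. Nanog reached 67.3, 67.2 and 66.2 CPM in the parental line after ATRA, 58.8, 59.6 and 48.8 CPM in het and 42, 40.8 and 44.7 CPM in WT. In mESC it stood at 786, 736 and 737 CPM in the parental line and 855, 781 and 749 CPM in het, and the WT values are given above. The 3 lines do not overlap after ATRA, and the response differed by -0.83 (SE 0.0958, adjusted p = 1.98e-08) and -0.49 (SE 0.0958, adjusted p = 0.00125). Tbx3 was an exception, with a response higher by 0.39 and 0.64 in WT.

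For several genes the parental, het and WT lines were further apart before ATRA than after it. Spry4, a feedback inhibitor of ERK, was read in mESC at 31.1, 28.5 and 27.9 CPM in the parental line, 50.1, 46.9 and 48.1 CPM in het and 95.8, 96 and 100.2 CPM in WT, and after ATRA at 141, 129.7 and 119 CPM in the parental line, 137, 122 and 113 CPM in het and 152, 159 and 159 CPM in WT. The WT response minus the others was -1.46 (SE 0.0958, adjusted p = 4.91e-15) for the parental line and -0.68 (SE 0.0937, adjusted p = 5.27e-06) for het. Etv4, an ERK target, showed 69.3, 59.5 and 55.2 CPM in parental mESC, 73.4, 73.1 and 69.6 CPM in het and 146, 147 and 159.7 CPM in WT, and its response differed by -1.32 (SE 0.155, adjusted p = 6.4e-08) and -0.81 (SE 0.154, adjusted p = 0.00112). Foxd1 was likewise higher in WT mESC than in parental mESC (2.03, 1.85 and 1.95 CPM) and het mESC (2.18, 1.58 and 1.3 CPM). Its log2 response was -4.93 in WT, -1.55 in the parental line and -2.58 in het. In the variant lines, not tested against WT, it was -0.28 (A677T), -3.70 (R679C), -3.76 (K634E), -2.97 (K563E) and -3.43 (A733T). Over all 8 lines the Spry4 response ran from -0.22 (K563E) to 2.15 (parental), and that of Etv4 from -0.56 (K563E) to 1.44 (parental). Dnmt3l stood at 452, 404 and 407 CPM in parental mESC, 484, 478 and 451 CPM in het and at 731, 698 and 772 CPM in WT, and the 3 lines overlapped after ATRA.

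Chac1, a glutathione-degrading enzyme of the integrated stress response, fell in WT and rose in the parental line and het. The gene (chr2:119351229-119354381) was read at 49.9, 43.7 and 44.7 CPM before and 95.7, 79.3 and 68.8 CPM after ATRA in the parental line, at 47.5, 40.3 and 47.2 CPM and 84.2, 78.5 and 68.6 CPM in het, and at 15.7, 17.6 and 22.9 CPM and 8.3, 8.67 and 8.01 CPM in WT. Both WT groups lie below all libraries of the parental line and het, and the response differed by -1.98 (SE 0.245, adjusted p = 2.97e-07) and -1.94 (SE 0.245, adjusted p = 1.82e-06). The log2 response was -1.17 in WT. In the variant lines, not tested against WT, it was 0.82 (A677T), 1.10 (R679C), -0.22 (K634E), 1.44 (K563E) and 0.55 (A733T). Of 15 genes of that stress response, 6 had a lower response in WT than in the parental line (3.04% of all genes did). Only 1 had a higher one (2.74% of all genes). Against het these were 4 and 1 (1.27% and 0.978% of all genes). The gene with a higher response was Slc7a11, the cystine transporter, which rose by 3.81 in WT, 2.38 in the parental line and 2.16 in het. Of 33 Hox genes, 3 (9.09%, against 2.74% of all genes) had a higher response in WT than in the parental line, Hoxa3, Hoxb9 and Hoxc4, and 0 a lower one. Against het, 1 was higher (Hoxb9) and 1 lower (Hoxb4), where 0.978% and 1.27% of all genes were. The calls for Hoxb9 and Hoxc4 against the parental line held without any 1 library, while that for Hoxa3, close to 0 in mESC, and both calls against het were each lost when certain single libraries were left out, among them WT mESC replicate 1 (Hoxa3 and Hoxb9) and WT mESC replicate 2 (Hoxb4).

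**Figure D5:**
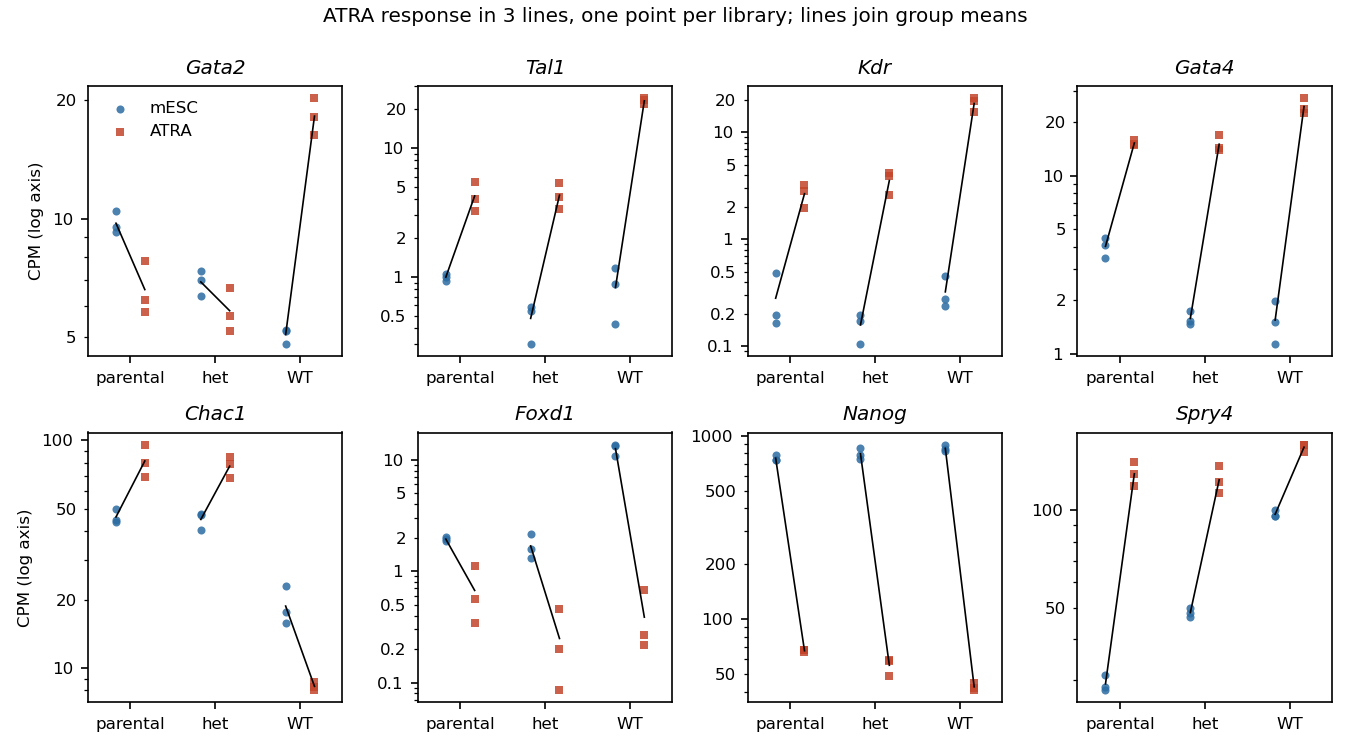
Levels in CPM (log axes) of 8 genes in the parental, het and WT lines, 1 point per library, circles for mESC and squares for ATRA, with lines joining the means of 3 libraries. Of these lines, Gata2 ATRA libraries stand above mESC in WT alone, Chac1 is lower after ATRA in WT and higher in the others, and Foxd1 and Spry4 start higher in WT mESC.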

How the data were processed

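The authors deposited raw counts of reads per gene, 1 table of 55401 Ensembl genes. The build mm10 and the tools featureCounts 1.6.4, STAR 2.7.3a, DESeq2 1.38.3 and cutadapt 3.2 are named, per the submitters' processing notes, with no role stated. Per the labels' protocols, libraries were made from poly(A) RNA with a dTTP second strand. How strand and multi-mapped reads were treated is not stated there. Another 6 columns, matching no label, were not used. Symbols came from GENCODE M21 (GRCm38, 55141 identifiers found) and promoters from RefSeq.

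All 48 libraries (16 groups, 32 residual degrees of freedom) were fitted in R 4.3.3 with edgeR 4.0.16 (filterByExpr, TMM, robust quasi-likelihood). On simulated data with these depths, 68.7%, 85.1% and 98.5% of genes changed 1.5-fold, 2-fold and 4-fold were recovered for ATRA against mESC in WT. At 1.5-fold, 47.8% were recovered for the difference from the parental line and 50.7% for that from het. The simulation changed 66 or 67 genes at each fold, none of them at low counts, and gave the other genes and lines no ATRA effect. It thus differs from the data, where 59.0% of genes were called, and does not cover genes with low counts. All pairs of replicates differed by more than counting error (chi-square per degree of freedom 4.39 to 10.5). Intervals and floors cover counting error only. CPM per kb uses the summed exon length.

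For ATRA against mESC, genes were named if they had an adjusted p under 0.05, 1 CPM in a group, no overlap between libraries and no predicted symbol. Of these, the 12 largest rises and 12 largest falls in log2 and 8 of each in CPM were taken. For differences between lines, the 6 largest log2 differences in each direction were taken among genes whose difference had an adjusted p under 0.05. There, the same sign in every pairing of replicates replaced no overlap. Any member of a list could be named as well. Not all of them are described, and some results are not reported here. The 8 promoter genes and the values that leave out a library were named after their values were seen. The comparison and the lists were chosen with earlier results of these data known. Alternatives covered scaling, filter, DESeq2 1.42.0, GC trend, replicate block, fewer libraries and leaving out each library.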

Additional observations from a re-analysis of the deposited data

Results flagged for a closer look

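Genes are given here because the response to ATRA differed between WT and another line in edgeR's test of the difference itself, with the largest differences named by the rule. Values are the WT log2 response minus that of the other line.

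Against the parental line, the WT response was higher for Edn2 (5.97), a vasoconstrictor peptide with no count in WT mESC, so that its value depends on the prior count, and for Thsd4 (2.86), Tal1 (2.72), Fam167a (2.7), Kdr (2.65) and Cyp26b1 (2.61). It was lower for Foxd1 (-3.38), Inhbb, an activin subunit (-2.95), Sfrp5, a secreted WNT inhibitor (-2.05), Vax2, an eye factor that overlaps the antisense gene Vax2os (-2.05), Chac1 (-1.98) and Mog (-1.89). WT was not tested against the variant lines. The Inhbb response was -5.69 in WT, -2.74 in the parental line and -6.81 (K563E) to -3.72 (A677T) in the variant lines. For Mog these were -1.88, 0.004 and -2.08 (K634E) to -1.20 (A733T), and for Sfrp5 4.03, 6.08 and 3.73 (K563E) to 6.26 (R679C). Leaving out 1 library ended the call for Cyp26b1, Sfrp5, Vax2, Kdr, Edn2 and Mog in at least 1 case each.

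Against het, the WT response was higher for Srarp (5.06), Gem (3.02), Fam167a (2.95), Thsd4 (2.83), P2rx1 (2.38) and Gata2 (2.06). It was lower for Hoxb4 (-4.88), Tmem200b (-2.90), the chemokine gene Cxcl12 (-2.59), Foxd1 (-2.35), Pcnx2 (-2.08) and Chac1 (-1.94). Srarp fell in both lines, with a response of -2.76 in WT and -7.82 in het, so its higher value is a smaller fall. Hoxb4, Tmem200b, Cxcl12 and Pcnx2 rose in both lines, and less in WT. Gem, Fam167a, Thsd4 and P2rx1 stayed low in WT, at means of 1.40, 1.82, 2.74 and 1.72 CPM after ATRA. Srarp had no count in het ATRA and Hoxb4 none in het mESC, so both values depend on the prior count. Leaving out 1 library ended the call for Srarp, Fam167a, P2rx1, Hoxb4, Tmem200b, Foxd1 and Pcnx2 in at least 1 case each. Without het mESC replicate 2 the value for Fam167a was 2.68. The calls for Thsd4, Gata2, Gem, Cxcl12 and Chac1 held under every alternative run. No cause of these differences was tested.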

How the results depend on the processing

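For ATRA against mESC in WT, all alternatives run gave counts within 1.5 times of the main one, from 9694 to 10064 genes called without 1 library each, and from 4323 to 4416 at least 2-fold. The difference from the parental line held 738 to 954 genes without 1 library each, 1658 with a GC correction and 2070 with that and a replicate block. The difference from het held 239 to 356 without 1 library each, 758 with the GC correction, 1040 with it and the block, and 755 with WT and het fitted alone. The cause was not tested. With the replicate block alone, 10846 genes were called for ATRA against mESC, 1399 and 583 for the differences. Same-numbered mESC and ATRA libraries of WT did not deviate together (r = 0.0744, -0.123 and -0.261). With 3 libraries a group, these values cannot show whether the numbers pair them. Suz12 (-0.01, not called) turned to 0.031 with RLE size factors or DESeq2, 0.086 with library size alone and 0.019 with WT fitted alone. Without 1 library each it ran from -0.069 to 0.066, and was above 0 (0.056, 0.0063 and 0.066) without mESC replicate 1, ATRA replicate 1 and ATRA replicate 2. Dppa5a lay at the threshold and was called in 6 of the alternatives.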

Other observations

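Of 14 p53 target genes, 7 were higher after ATRA in WT (50.0%, against 29.8% of all genes) and 3 lower (21.4%, against 29.2%). Mdm2, which degrades p53, was read at 92.9, 92.1 and 88 CPM in mESC and 203, 184 and 214 CPM in ATRA, and Perp rose by 1.88 (SE 0.142, adjusted p = 7.91e-16) on the log2 scale, while Cdkn1a (p21) went from 99, 84.4 and 95.4 CPM to 60.1, 53.8 and 61.9 CPM and Trp53 itself fell by 0.46. Of 13 Wnt ligands tested, 7 were higher (53.8%) and 1 lower (7.7%), and the 7 became 4 with WT fitted alone. Wnt5b fell from 9.87, 10.5 and 9.35 CPM to 4.97, 5.07 and 5.24 CPM, and Wnt9a rose from 0.354, 0.667 and 0.498 CPM to 2.24, 2.06 and 1.79 CPM. Among adhesion genes, 12 of 21 were higher and 7 lower, with Zeb2, a repressor of E-cadherin, up from 0.658, 0.477 and 0.553 CPM to 12.9, 15.5 and 15.7 CPM and fibronectin (Fn1) down from 2144, 2229.8 and 2133 CPM to 1249.9, 1295 and 1111 CPM.

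Chromosomes differed in their share of calls. Of 619 tested genes on X, 39.4% were higher in WT and 21.6% lower, with a median log2 change of 0.24 (0.15 after the GC correction), and the share of higher genes was 32.6% to 40.2% in the other lines. Of 902 tested genes on chromosome 17, 18.4% were higher and 40.1% lower, with a median of -0.17.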
